A study of Mus musculus with 33 samples.

Results

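Total bone marrow RNA of female C57BL/6 mice, 6 to 8 weeks old, was counted with NanoString nCounter probes, and the 8 probes described here are for genes tied to plasma cells: *Xbp1*, *Pou2af1*, *Irf4*, *Tnfrsf17*, *Tnfrsf13b*, *Tnfsf13*, *Slamf7* and *Cd38*. They were chosen by name from the panel, and all 8 were present among its 750 endogenous probes, which hold 1 probe per gene. Mice received venetoclax, an inhibitor of the survival protein BCL2, once daily, or ruxolitinib, an inhibitor of the kinases JAK1 and JAK2, 2 times a day, both by oral gavage for 2 days. Control mice received the vehicle of venetoclax (Phosal 50 PG, PEG 400 and ethanol) or that of ruxolitinib (DMSO, PEG 300 and water), and untreated mice received neither.

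Marrow was taken 1, 3 or 7 days after treatment, from 3 mice for each drug and day, 2 mice for each vehicle and day, and 3 untreated mice, 13 groups and 33 mice in all. The series text gives the doses in mg/ml (100 for venetoclax and 180 for ruxolitinib), while the methods state the same figures per kg of body weight. The mice carried no transgene, tumour or graft. Each mouse had a lane of its own. The lanes were run in 3 sets of 11, each with the mice of 1 day and 1 untreated mouse, so day and run cannot be told apart. Each drug was compared with the vehicle mice of its own day, which lay in the same run. The total over endogenous probes ranged from 18056 to 466096 counts per lane (median 158944), and 2 lanes, ruxolitinib day 3 mouse 1 and venetoclax day 1 mouse 1, had fewer than 30000. Whole marrow contains few plasma cells, and in bulk RNA fewer cells of a type and less RNA per cell cannot be told apart.

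A plasma cell is a B cell that has turned into an antibody factory. IRF4 and the repressor Blimp-1 (*Prdm1*) switch off the B cell programme held by PAX5, while XBP1, spliced by the unfolded protein response, enlarges the secretory apparatus. Long-lived plasma cells lodge in bone marrow niches, where CXCL12 retains them and where the cytokines APRIL (*Tnfsf13*) and BAFF (*Tnfsf13b*) sustain them, mainly through the receptor BCMA (*Tnfrsf17*). TACI (*Tnfrsf13b*) binds both cytokines as well, while BAFF-R (*Tnfrsf13c*) binds BAFF and is a receptor of mature B cells. SLAMF7 and CD38 are surface proteins of plasma cells and targets of antibodies against myeloma. Most of the genes are also expressed outside plasma cells: *Pou2af1* is expressed throughout the B lineage, *Xbp1* in many secretory cells, and *Slamf7* and *Cd38* in other leukocytes too.

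The probes differed widely in how far they rose above background, which was set lane by lane from the 8 negative control probes as their mean and 2 SD more (1.83 to 7.85 counts). *Xbp1* and *Slamf7* were above background in all 33 lanes. *Pou2af1* and *Cd38* passed it in 31 lanes, *Irf4* in 29 and *Tnfrsf13b* in 27. *Tnfsf13* passed it in 15 lanes and *Tnfrsf17* in 6, with raw counts of 1 to 19 and 1 to 10. The 2 lanes in which *Pou2af1* was not above background were the 2 with fewer than 30000 counts, where it had 1 and 5 counts. A list of plasma cell markers had 5 of its 8 genes on the panel, and 4 of these are among the genes described here. The other, *Prdm1*, was above background in 10 lanes with 1 to 16 counts. The marrow identity of the samples was clear from genes of neutrophils and their precursors, with the granule genes *Mpo* and *Elane* above background in all 33 lanes. Of 8 such genes, 7 had a higher averaged value after either drug, with medians of 0.23 for venetoclax and 0.35 for ruxolitinib, and none passed the threshold used below.

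**Figure D1:**
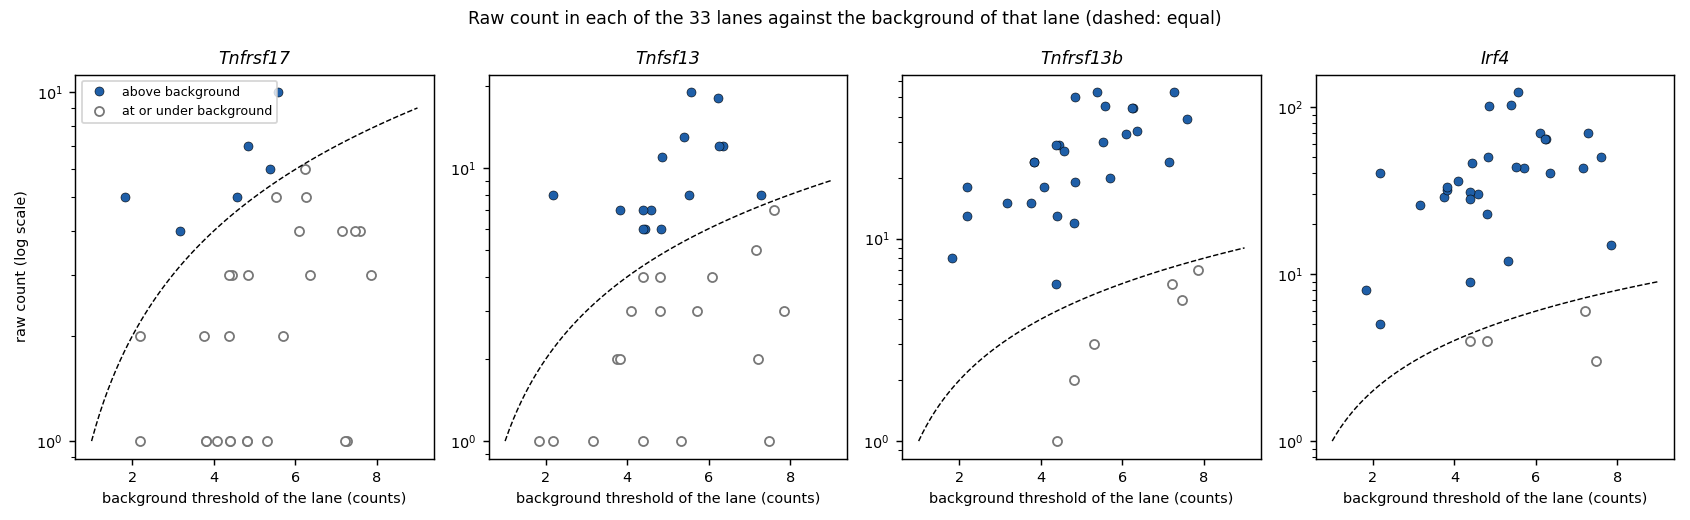
Raw count of 4 of the genes in each of the 33 lanes (vertical axis, log scale) against the background threshold of that lane in counts (horizontal axis). The dashed line marks equal values, and open points are lanes in which the gene was not above background. *Tnfrsf17* passed background in 6 lanes and *Tnfsf13* in 15, while *Irf4* passed it in 29.

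Values below are normalised counts, that is, raw counts divided by a lane factor from 11 housekeeping probes. Fold changes are on the log2 scale, with the SE from the edgeR model, and p-values were adjusted over 655 tested genes. All 8 genes were among those tested. Where genes of a list are counted as higher or lower, the sign is that of the fitted fold change. Probes differ in efficiency, so no gene's level was compared with another's. With 3 drug and 2 vehicle mice, groups without overlap on a single day were common: 27.5%, 26.1% and 17.3% of tested genes were so for venetoclax on days 1, 3 and 7, and 44%, 15.6% and 17.7% for ruxolitinib.

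*Pou2af1* encodes OCA-B (also called OBF-1 or BOB.1), a co-activator that binds the octamer factors OCT1 and OCT2 on immunoglobulin promoters and is needed for germinal centres. It was the 1 gene of the 8 past the threshold after ruxolitinib, averaged over days, and that call depended on single mice. *Irf4* and *Slamf7* also had lower averaged values, which did not pass against the ruxolitinib vehicle. The promoter window of *Pou2af1* is shown with that of *Irf4* because these 2 genes had the lowest averaged values after ruxolitinib. The windows run from 250 bases before to 50 bases after the RefSeq start on GRCm38.p6, at chr9:51213440-51213739 (plus strand) for *Pou2af1* and chr13:30748983-30749282 (plus strand) for *Irf4*. Letters in capitals mark a match to one of the searched motifs.
Pou2af1: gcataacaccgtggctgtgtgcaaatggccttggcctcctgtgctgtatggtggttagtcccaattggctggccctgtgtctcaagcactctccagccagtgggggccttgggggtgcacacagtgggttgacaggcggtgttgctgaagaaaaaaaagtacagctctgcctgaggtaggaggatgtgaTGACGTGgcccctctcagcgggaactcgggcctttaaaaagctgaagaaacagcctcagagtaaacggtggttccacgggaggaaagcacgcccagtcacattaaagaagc
Irf4: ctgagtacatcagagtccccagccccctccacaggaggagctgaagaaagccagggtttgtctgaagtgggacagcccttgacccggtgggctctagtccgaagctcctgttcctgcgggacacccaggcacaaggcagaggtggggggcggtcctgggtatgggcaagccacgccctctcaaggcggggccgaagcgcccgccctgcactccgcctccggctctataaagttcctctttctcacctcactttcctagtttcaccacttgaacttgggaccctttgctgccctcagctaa

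Both strands were searched for the octamer ATGCAAAT, the STAT site TTCNNNGAA, the IRF pair GAAANNGAA and the core of the unfolded protein response element TGACGTG, which XBP1 can bind. The *Pou2af1* window held TGACGTG on the plus strand at its base 190. No searched motif was in the *Irf4* window. Over the 8 promoter windows the other match was a minus-strand IRF pair at base 151 of the *Tnfrsf17* window, which belongs to a transcript that starts inside the annotated span of that gene. Of 32851 RefSeq promoter windows of the same length, 2.01% held TGACGTG, 8.56% the IRF pair, 8.3% the STAT site and 1.74% the octamer. A match is a description of the letters and not a site of binding.

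On day 1, the 2 mice given the ruxolitinib vehicle had 44.9 and 59.9 normalised counts of *Pou2af1*, and the 3 ruxolitinib mice had 33.3, 26.02 and 33.9. On day 3 the vehicle mice had 61.2 and 34.9 and the ruxolitinib mice 27.5, 22.2 and 18.6. By day 7 the vehicle mice had 18.01 and 30.7 and the ruxolitinib mice 11.9, 10.9 and 15.5. The 27.5 of day 3, in a shallow lane, and the 15.5 of day 7 stood on 5 raw counts each. On days 1 and 7 every ruxolitinib mouse was below both vehicle mice. On day 3 this held for 2 of the 3, since the 27.5 was not above the background of its lane, which came to 39.7 normalised counts and lay above the vehicle mouse at 34.9. By normalised counts alone, whether above background or not, 7 of the 655 tested genes had all ruxolitinib mice below the vehicle mice on each day (1.07%), and 2 of the 8 genes did, *Pou2af1* and *Slamf7*. The opposite pattern was found for none of the tested genes (0%).

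Averaged over the 3 days, *Pou2af1* fell by 0.92 on the log2 scale after ruxolitinib (SE 0.23, edgeR adjusted p = 0.0264), from a mean of 41.6 to 22.2 normalised counts over 6 vehicle and 9 drug mice. It was the 1 gene of the 8 past the threshold in this comparison, in which 1.22% of tested genes passed and 1.07% passed in the lower direction. The 6 other genes that passed in that direction were *Rag1*, *Igll1*, *Dpp4*, *Il7r*, *Oas2* and *Pax5*, of which *Rag1*, *Igll1* and *Il7r* are genes of early B cell development. The single-day values of *Pou2af1* were -0.78 on day 1 (SE 0.34), -1.12 on day 3 (SE 0.41) and -0.86 on day 7 (SE 0.44), with adjusted p = 0.312, 0.608 and 0.999. With 1 mouse left out they ran from -0.95 to -0.53, from -1.50 to -0.69 and from -1.38 to -0.61. By edgeR no gene of the 8 passed on a single day, DESeq2 and limma likewise called 0, and 2.75% of tested genes passed on day 1 and 0.153% on each of days 3 and 7. At an unadjusted p below 0.05 there were 3, 1 and 1 of the 8 on days 1, 3 and 7, against 13.6%, 4.7% and 3.5% of tested genes.

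The averaged call on *Pou2af1* depended on single mice. It was lost without vehicle mouse 2 of day 1 (adjusted p = 0.127), ruxolitinib mouse 2 of day 1 (0.0676), vehicle mouse 1 of day 3 (0.170), ruxolitinib mouse 2 (0.0686) or 3 (0.0577) of day 3, vehicle mouse 1 (0.0638) or 2 (0.0780) of day 7, or ruxolitinib mouse 1 (0.0562) or 2 (0.0863) of day 7, while the fold change stayed between -1.09 and -0.78 over the 15 omissions. Without the 2 lanes under 30000 counts it was -0.94 (adjusted p = 0.00979). Limma gave -0.86 with adjusted p = 0.484. The call was also lost with untreated mice as controls (-1.15, adjusted p = 0.0524), and under other settings given with the processing below.

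The B lineage marker list was followed beside it. Of its 12 genes, 9 had a lower and 3 a higher averaged value after ruxolitinib, with a median of -0.31 against 0.04 over all tested genes, and 1 passed the threshold. That gene was *Pax5*, the B cell identity factor, which fell by 0.83 (SE 0.21, adjusted p = 0.0264). *Cd79a*, a signalling chain of the B cell receptor, had -0.70 (adjusted p = 0.157) and the kinase gene *Blk* -0.65 (adjusted p = 0.143), while the genes of the mature B cell receptors CD23 (*Fcer2a*) and CD21 (*Cr2*), above background in 18 and 9 lanes, had 0.64 each.

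The summed level of the 12 B lineage markers was 1178 to 1248 in the vehicle mice and 1213 to 1398 in the ruxolitinib mice on day 1. It was 1147 to 1270 against 782 to 842 on day 3, and 1004 to 1077 against 656 to 807 on day 7. The sums overlapped on day 1, when *Pou2af1* lay below its vehicle values, and did not overlap on days 3 and 7. *Pax5* itself was lower on day 1 without overlap, with means of 148 and 181 (log2 -0.29, SE 0.33, adjusted p = 0.742), while 8 of the 12 markers had a higher and 4 a lower value that day (median 0.23). Its difference was larger on day 3, with means of 72.0 and 182 (log2 -1.46, SE 0.37, adjusted p = 0.0643). On day 7 the means were 52.75 and 80.8 (log2 -0.73, SE 0.37, adjusted p = 0.999), and neither day had overlap. The part of B cell number in the *Pou2af1* result was not tested.

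After venetoclax *Pou2af1* showed no such separation. The vehicle mice had 43.2 and 49.4 on day 1, 63.4 and 40.8 on day 3 and 14.5 and 8.43 on day 7. The drug mice had 5.55, 51.1 and 65.8 on day 1, 45.3, 60.8 and 28.8 on day 3 and 34.7, 23.7 and 12.5 on day 7. The lowest of these came from the shallow lane with 1 raw count, and drug and vehicle mice overlapped on every day. The averaged value was 0.15 (SE 0.24, adjusted p = 0.920), and its sign turned with limma and with untreated mice as controls. The response to venetoclax minus the response to ruxolitinib was 1.07 (SE 0.33, adjusted p = 0.162).

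*Irf4* encodes the transcription factor that drives B cells into plasma cells at high dose and keeps plasma cells alive. On day 1 the ruxolitinib vehicle mice had 30.2 and 23.96 normalised counts and the drug mice 18.8, 28.3 and 21.9. On day 3 the vehicle mice had 31.8 and 35.7 and the drug mice 33.02, 25.3 and 11.2. On day 7 the vehicle mice had 31.4 and 47.1 and the drug mice 11.5, 18.8 and 12.4. The groups overlapped on days 1 and 3 and were apart on day 7. The day 7 difference was -1.26 (SE 0.36, adjusted p = 0.270), that of day 3 -0.66 and that of day 1 -0.20. With 1 mouse left out these ran from -1.64 to -1.04, from -1.08 to -0.35 and from -0.39 to -0.056. Averaged over days the difference was -0.71 (SE 0.21, adjusted p = 0.0861), which did not pass. With the vehicle mice of both drugs pooled, *Irf4* had -0.72 and passed (adjusted p = 0.0136). Some of these values rest on few reads, since the day 3 mouse at 33.02 had 6 counts and the day 7 mouse at 12.4 had 4, neither above background.

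After venetoclax the vehicle mice had 31.3 and 25.5 normalised counts of *Irf4* on day 1, 41.5 and 34.4 on day 3 and 39.5 and 14.0 on day 7. The drug mice had 22.2, 28.7 and 17.0, then 37.4, 51.5 and 28.8, then 53.9, 35.6 and 38.4. The 22.2, in the shallow lane, stood on 4 raw counts that were not above background. The vehicle value of 14.0 stood on 5 raw counts. Drug and vehicle mice overlapped on each day, and the averaged value was 0.07 (SE 0.21, adjusted p = 0.964). The venetoclax minus ruxolitinib response was 0.78 (SE 0.29, adjusted p = 0.282).

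*Xbp1* encodes the factor that expands the endoplasmic reticulum of secretory cells, and the probe does not separate its spliced form. Its values ran from 38.4 in an untreated mouse, whose lane held 12 counts of it, to 172 in another. Averaged over days it was 0.17 after venetoclax (SE 0.16, adjusted p = 0.846) and 0.19 after ruxolitinib (SE 0.16, adjusted p = 0.652). On day 3 the 3 venetoclax mice (143, 125 and 130) lay above both vehicle mice (103 and 88.4), a difference of 0.48 (SE 0.27, adjusted p = 0.528). On day 1 the 3 ruxolitinib mice (135, 127 and 119) likewise lay above both vehicle mice (114 and 96.9), a difference of 0.27 (SE 0.26, adjusted p = 0.697).

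The receptors *Tnfrsf17* and *Tnfrsf13b* and the ligand *Tnfsf13* form the APRIL axis. *Tnfrsf17* had 2.43 normalised counts on average after ruxolitinib and 2.35 after its vehicle, and 4.22 after venetoclax against 1.94 after its vehicle, at raw counts that were mostly background. Its largest single-day values, 2.00 after ruxolitinib (SE 0.87) and 1.65 after venetoclax (SE 0.87) on day 1, compared vehicle mice with 1 or 2 raw counts to drug mice with 1 to 5. The ligand gene *Tnfsf13* averaged 6.52 after ruxolitinib and 3.73 after its vehicle (log2 0.55, SE 0.33, adjusted p = 0.551), and 5.11 against 3.38 after venetoclax (log2 0.46, SE 0.37, adjusted p = 0.842). The highest ruxolitinib values, 12.42 (day 7 mouse 3, 4 raw counts) and 11.01 (day 3 mouse 1, 2 raw counts), were not above background. Leaving out these mice 1 at a time gave averaged log2 values of 0.475 and 0.51. On each day 2 of the 3 ruxolitinib mice and 1 of the 2 vehicle mice were above background for *Tnfsf13*. On day 1 the ruxolitinib mice had 4.39, 3.96 and 6.56 normalised counts of *Tnfsf13* and the vehicle mice 1.83 and 2.74 (log2 1.00, SE 0.56, adjusted p = 0.460). The 3.96 (7 raw counts) and the 1.83 (2 raw counts) were not above the background of their lanes. No response of either gene was called, and DESeq2 gave neither an adjusted p in the averaged ruxolitinib comparison, so it could not call them there. Without vehicle mouse 2 of day 3 the averaged ruxolitinib value of *Tnfsf13* was 1.13, and without vehicle mouse 1 of that day it was 0.36.

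*Tnfrsf13b*, the gene of the receptor TACI, was measurable in most lanes. On day 7 the venetoclax mice had 10.4, 16.6 and 14.0 normalised counts and their vehicle mice 19.5 and 36.5 (log2 -0.78, SE 0.33, adjusted p = 0.847). The ruxolitinib mice of that day had 11.9, 12.9 and 6.21 and their vehicle mice 16.2 and 24.6 (log2 -0.62, SE 0.31, adjusted p = 0.999). Both drugs' day 7 groups thus lay below their vehicles with no overlap, and neither difference passed. With 1 mouse left out the differences ran from -1.41 to -0.51 (venetoclax) and from -1.045 to -0.44 (ruxolitinib). The venetoclax mouse at 16.6 had 7 raw counts and the ruxolitinib mouse at 6.21 had 2, neither above the background of its lane. Averaged over days the values were -0.34 for venetoclax (adjusted p = 0.640) and -0.29 for ruxolitinib (adjusted p = 0.551).

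*Slamf7* encodes a receptor of the SLAM family found on plasma cells and natural killer cells. On day 1 the ruxolitinib vehicle mice had 60.4 and 38.7 normalised counts and the drug mice 38.3, 36.8 and 27.9. On day 3 they had 51.4 and 61.6 against 49.5, 45.5 and 24.8, and on day 7 58.0 and 59.4 against 41.8, 49.3 and 43.5. Each drug mouse was below the vehicle mice of its day, on day 1 by a narrow margin (38.3 against 38.7). The differences were -0.49, -0.55 and -0.37 on days 1, 3 and 7, and the average was -0.47 (SE 0.16, adjusted p = 0.156). With 1 mouse left out the day 1 difference ran from -0.82 to -0.18. That of day 3 ran from -0.86 to -0.29 and that of day 7 from -0.47 to -0.30. With untreated mice as controls the average was -0.069 (adjusted p = 0.996). Of 6 natural killer cell markers, 5 had a lower and 1 a higher averaged value, with a median of -0.20 and none past the threshold. Their summed level was 75.1 to 88.7 in vehicle mice and 57.1 to 63.5 in ruxolitinib mice on day 1, 55.1 to 96.5 and 50.8 to 73.2 on day 3, and 71.7 to 92.8 and 76.7 to 130 on day 7. Their part in the *Slamf7* values was not tested.

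After venetoclax *Slamf7* leaned the other way. The vehicle mice had 39.9 and 35.05 on day 1, 39.2 and 45.7 on day 3 and 68.8 and 44.9 on day 7, and the drug mice had 38.8, 46.7 and 27.6, then 60.9, 68.0 and 58.3, then 104, 59.3 and 68.1. Drug and vehicle mice were apart on day 3, where the difference was 0.54 (SE 0.27, adjusted p = 0.455), and overlapped on days 1 and 7. On day 3 the natural killer markers had a higher value in 4 of 6 (median 0.21), with none past the threshold. Their summed level that day was 53.0 to 80.5 in the vehicle mice and 76.2 to 98.7 in the venetoclax mice, with overlap. Averaged over days, 2 of the 6 had a higher and 4 a lower value after venetoclax (median -0.14). By flow cytometry, the paper reported a rapid loss of marrow natural killer cells after venetoclax. The part of these cells in the *Slamf7* values was not tested. The averaged *Slamf7* value was 0.32 (SE 0.16, adjusted p = 0.557). The difference between the responses to the 2 drugs was 0.79 (SE 0.22, adjusted p = 0.0936), the lowest adjusted p of the 8 genes in that comparison.

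*Cd38* encodes an enzyme on the cell surface that consumes NAD. On day 1 the venetoclax mice had 5.55, 13.1 and 14.8 normalised counts and their vehicle mice 19.4 and 27.9 (log2 -0.91, SE 0.52, adjusted p = 0.556), the lowest of them in the shallow lane with 1 count, which was not above the background of 24.35 normalised counts there. On the same day the ruxolitinib mice had 23.2, 42.99 and 34.5 and their vehicle mice 21.1 and 16.4 (log2 0.89, SE 0.39, adjusted p = 0.320). The ruxolitinib mice thus lay above their vehicle mice, and the 2 venetoclax mice above background lay below theirs. The difference between the responses on day 1 was -1.80 (SE 0.65, adjusted p = 0.154). On day 3 the venetoclax mice had 23.5, 22.7 and 28.8 and their vehicle mice 6.92 and 22.6, apart by a narrow margin (log2 0.59, SE 0.43, adjusted p = 0.676). That value was 0.16 without vehicle mouse 1 and 1.85 without vehicle mouse 2. The ruxolitinib mice of day 3 had 38.5, 35.6 and 8.68 and overlapped their vehicle mice at 13.5 and 41.4 (log2 -0.10, SE 0.43, adjusted p = 0.998), with the 38.5 standing on 7 counts that were not above background. On day 7 the order was turned, with 66.0, 61.6 and 54.0 after venetoclax against 46.9 and 30.9, and 16.8, 27.9 and 34.2 after ruxolitinib against 40.3 and 38.9. The venetoclax difference of day 7 was 0.49 (SE 0.39, adjusted p = 0.999) and the ruxolitinib difference -0.72 (SE 0.39, adjusted p = 0.999), and the difference between the responses was 1.22 (SE 0.55, adjusted p = 0.998). Averaged over days *Cd38* had 0.06 after venetoclax and 0.02 after ruxolitinib (adjusted p = 0.973 and 0.995), both with signs that turned under other settings.

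**Figure D2:**
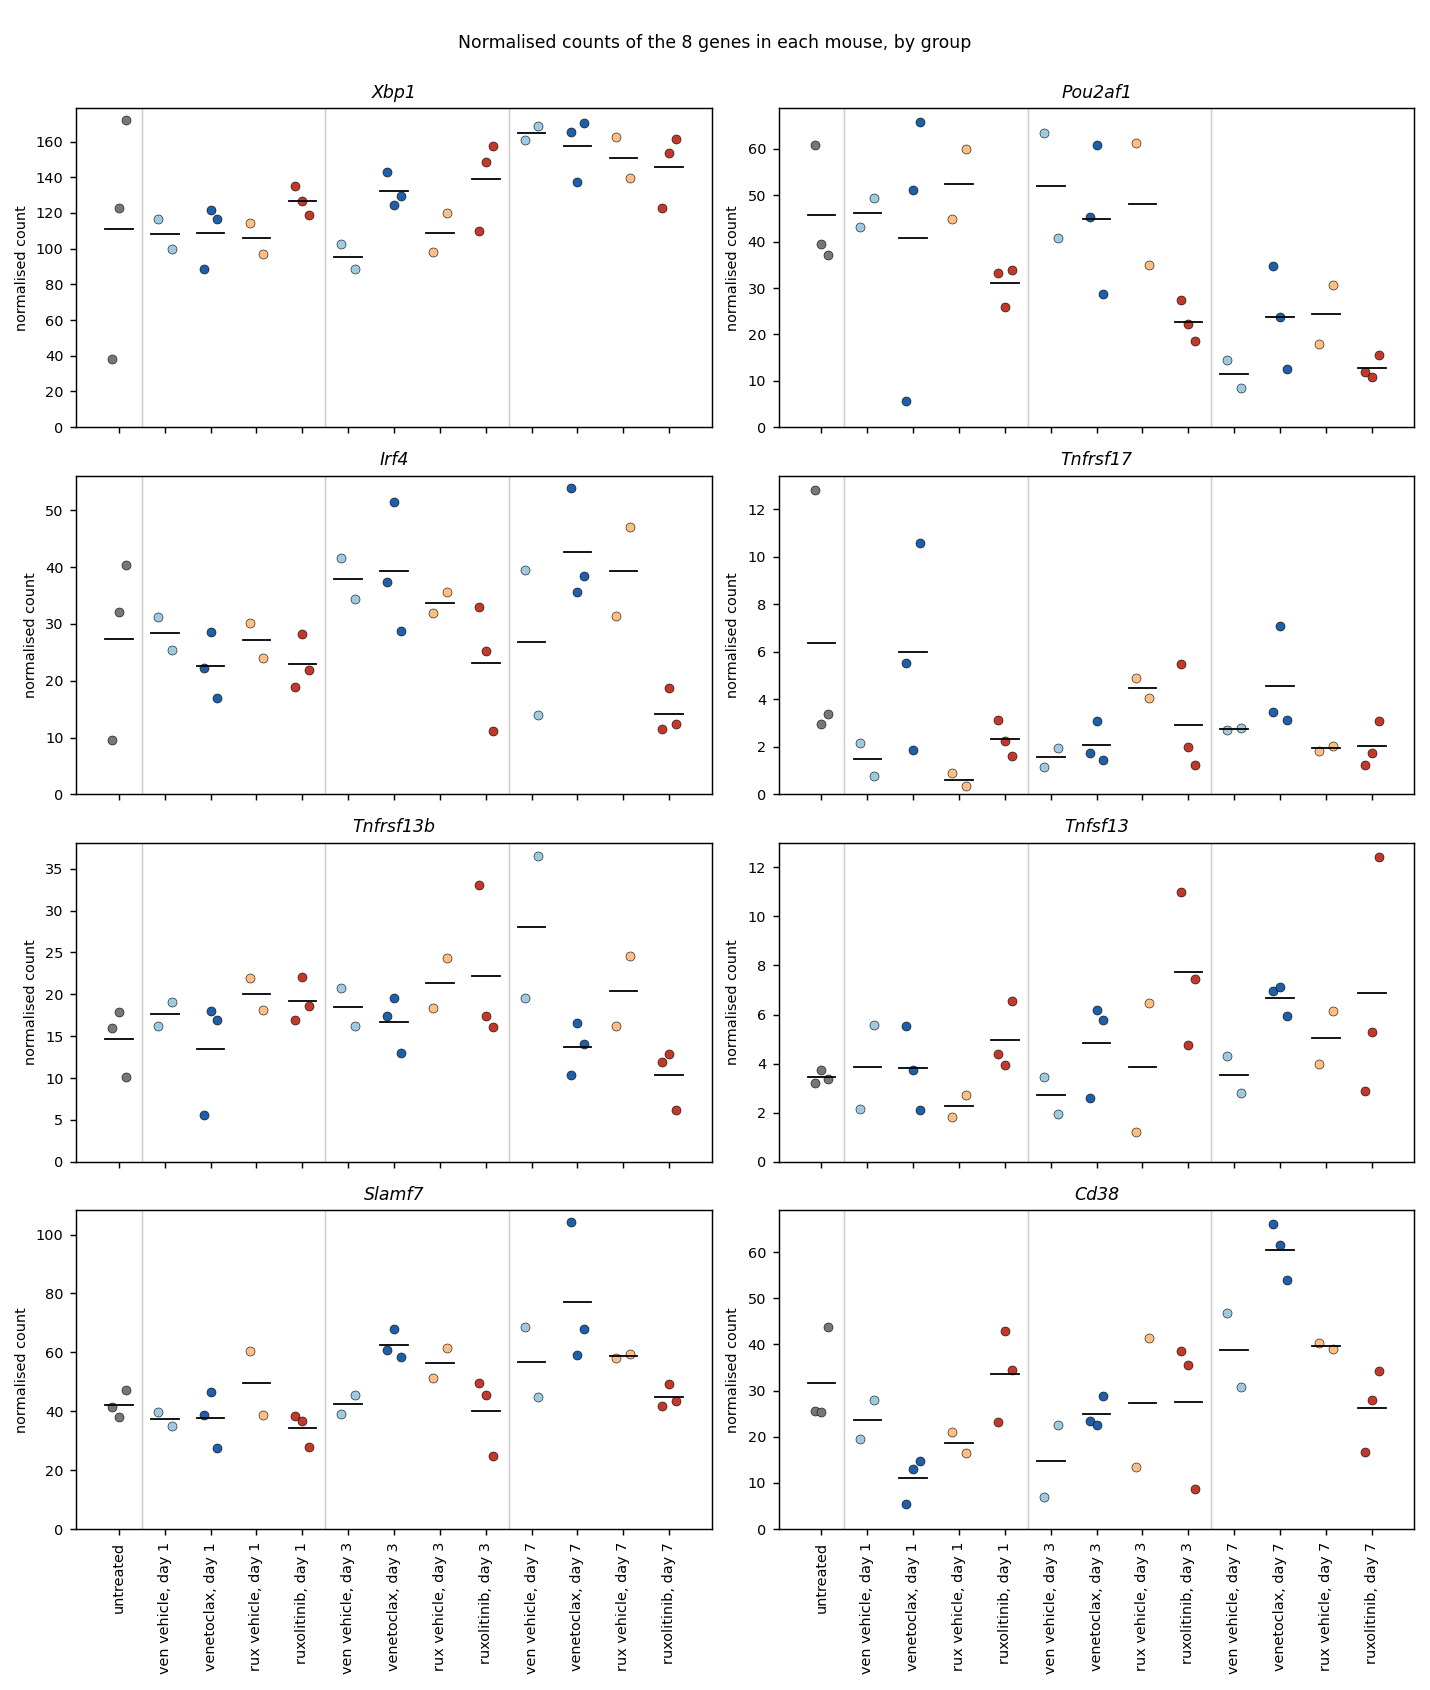
Normalised counts of the 8 genes (vertical axes, each from 0) in every mouse, by group; points are mice and lines group means, and vertical lines separate untreated mice and the days. The ruxolitinib mice (red) lay below their vehicle mice (orange) on each day for *Slamf7*, and for *Pou2af1* on days 1 and 7, while 1 of its 3 ruxolitinib values of day 3 (27.5) was not above background.

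After venetoclax, none of the 8 genes passed the threshold on any day or averaged over days, against 0.153% of tested genes on day 1, 0% on day 3, 0.153% on day 7 and 2.9% averaged. Of the 8 genes, 1 had an unadjusted p below 0.05 on day 7 (*Tnfrsf13b*) and 0 on days 1 and 3 and in the average, by edgeR, against 4.7%, 10.4%, 10.7% and 9.2% of tested genes, and DESeq2 and limma called 0 of the 8 in each. Averaged over days, 7 of the 8 had a fitted value above 0 and 1 below after venetoclax, with a median of 0.16, and 4 were above 0 and 4 below after ruxolitinib, with a median of -0.14. The positive venetoclax value of *Pou2af1* came with means of 36.5 normalised counts in drug mice and 36.6 in vehicle mice. The medians over all tested genes were 0.04 in both. No gene of the 8 had all venetoclax mice below, or all above, the vehicle mice on each of the days, as 0.611% and 0.305% of tested genes did.

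**Figure D3:**
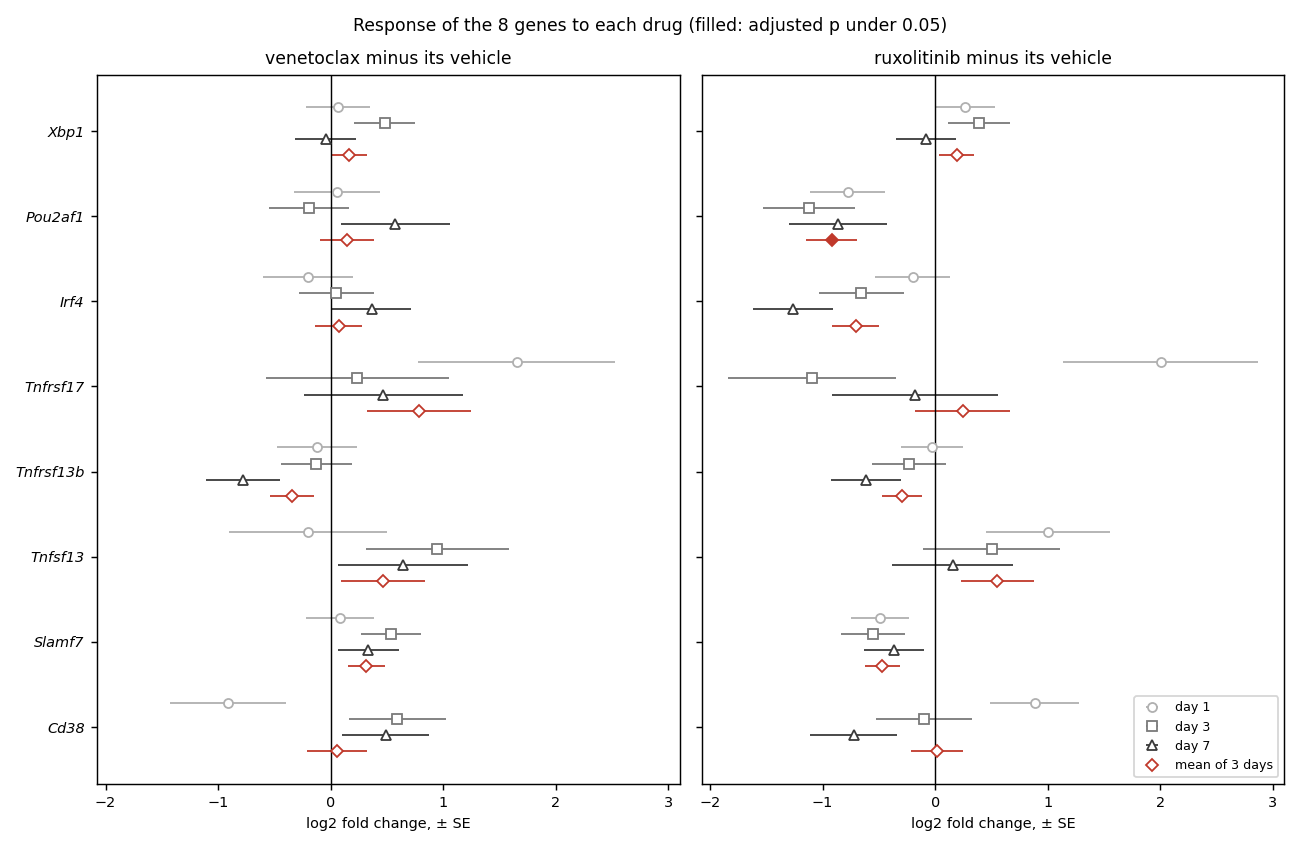
Log2 fold change of each of the 8 genes, drug minus its own vehicle, with the SE as the bar, for venetoclax (left) and ruxolitinib (right) on each day and averaged over the 3 days (diamonds). The filled diamond, *Pou2af1* after ruxolitinib, marks the 1 value with an adjusted p under the threshold.

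The difference between the responses to the drugs passed the threshold for none of the 8 genes, on day 1 (1.68% of tested genes passed), day 3 (0.153%), day 7 (0.305%) or averaged (0.611%). In the averaged difference 3 of the 8 genes had an unadjusted p below 0.05 by edgeR, *Pou2af1*, *Irf4* and *Slamf7*, against 8.7% of tested genes, and on the single days 1, 1 and 3 did, against 13.4%, 3.1% and 3.8%. Differences of the response between days were not called for any of the 8 by edgeR either, with 0 to 2 of the 8, and 1.8% to 11.5% of tested genes, at an unadjusted p below 0.05 in each test. DESeq2 and limma called 0 of the 8 in all these tests. For venetoclax, 0.305% of tested genes passed between days 1 and 3, 0% between days 1 and 7 and 0.153% between days 3 and 7. For ruxolitinib, 1.07%, 1.53% and 0.153% passed. The lowest adjusted p among the 8 in these tests was that of *Cd38* between days 1 and 7 of ruxolitinib (-1.61, SE 0.55, adjusted p = 0.199).

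Vehicle and untreated mice were also compared, as the mean of the 6 vehicle groups minus untreated mice. That difference passed for 0% of tested genes, and 1 of the 8, *Tnfrsf17*, had an unadjusted p below 0.05 by edgeR, as did 11.5% of tested genes, while DESeq2 and limma called 0 of the 8. Untreated mice had 60.8, 39.6 and 37.1 normalised counts of *Pou2af1* and 9.60, 32.1 and 40.4 of *Irf4*. They had 41.6, 38.1 and 47.2 of *Slamf7* and 25.6, 25.4 and 43.8 of *Cd38*. Their lowest *Irf4* value had 3 raw counts.

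Over all 13 groups, *Pou2af1* was highest in the day 1 ruxolitinib vehicle mice (52.4 ± 10.6, SD, n = 2) and lowest in the day 7 venetoclax vehicle mice (11.4 ± 4.26, SD, n = 2). The order of its group means held 12 neighbouring pairs, of which 1 did not overlap, ruxolitinib day 3 above ruxolitinib day 7. *Irf4* was highest after venetoclax on day 7 and lowest after ruxolitinib on day 7, and *Cd38* highest after venetoclax on day 7 and lowest after venetoclax on day 1, each also with 1 neighbouring pair that did not overlap. For *Irf4* that pair was the vehicle mice of ruxolitinib on day 3 over those of venetoclax on day 1, and for *Cd38* venetoclax over the ruxolitinib vehicle on day 7. The other 5 genes had no such pair. The share of all tested genes with such a pair was not counted, so these pairs only describe the values.

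Other genes of plasma cell biology were followed through a list of 49, of which 36 were on the panel and 34 were tested. After ruxolitinib, averaged over days, 1 passed in the higher and 1 in the lower direction, with a median of 0.01. The lower gene was *Pax5*, and the higher was *Cxcl12*, the chemokine with which marrow stroma holds plasma cells and other CXCR4-bearing cells (1.12, SE 0.25, adjusted p = 0.0105). Its mean was 171 normalised counts after ruxolitinib and 77.8 after vehicle, and the difference was widest on day 1 (198 against 51.7, log2 1.93, SE 0.43, adjusted p = 0.00533). Beside it, all 5 stroma markers, *Cxcl12* among them, had a higher averaged value after ruxolitinib, with a median of 0.60, but *Col3a1* and *Pdgfrb* were above background in 2 and 3 lanes and none of the 4 other than *Cxcl12* passed. The summed level, which includes *Cxcl12*, was 247 to 322 in the drug mice and 100.0 to 111 in the vehicle mice on day 1, 165 to 262 and 129 to 195 on day 3, and 135 to 525 and 189 to 201 on day 7, overlapping on the last 2 of these days. The BAFF receptor gene *Tnfrsf13c* passed on day 1 of ruxolitinib (28.1 against 11.7, log2 1.34, SE 0.38, adjusted p = 0.0473). On day 3 *Tnfrsf13c* had 13.7 against 16.2 (log2 -0.42, adjusted p = 0.998) and on day 7 9.40 against 28.9 (log2 -1.46, SE 0.40, adjusted p = 0.270), where the groups did not overlap and the value lay on the other side of 0 from that of day 1. Averaged over days it had -0.18. *Cd40*, a receptor for T cell help, had -0.49 averaged (adjusted p = 0.431).

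After venetoclax none of the 34 passed in the average, and their median was 0.02. The values farthest from 0 were those of the interleukin-21 receptor gene *Il21r* (-0.84, SE 0.27, adjusted p = 0.0957), *Il21* (0.73, SE 0.77) and *Cd28* (0.62, SE 0.51), the last 2 at low counts. Of the 12 B lineage markers, 11 had a lower and 1 a higher averaged value, with a median of -0.23. Among them *Cd22*, an inhibitory receptor of B cells, passed (-0.80, SE 0.23, adjusted p = 0.0476). *Prdm1*, the partner of *Irf4* in plasma cell formation, had 0.59 after venetoclax and -0.40 after ruxolitinib (SE 0.43 and 0.38, adjusted p = 0.776 and 0.719).

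The list of plasma cell markers, of which *Xbp1*, *Irf4*, *Slamf7* and *Tnfrsf17* are also among the 8 genes, is no independent measure of them. After venetoclax, averaged over days, all 5 measured markers had a higher value, with a median of 0.32, and after ruxolitinib 2 had a higher and 3 a lower value, with a median of -0.40. None of the 5 passed in either average. *Tnfrsf17* and *Prdm1* were above background in 6 and 10 of the 33 lanes, the ruxolitinib median is the value of *Prdm1*, and the venetoclax signs of *Irf4* and *Tnfrsf17* turned under other settings. Markers of other cells were also followed after venetoclax. All 7 T cell markers had a lower averaged value (median -0.69), of which *Cd3d* (-0.94, adjusted p = 0.0153) and *Cd8a* (-1.90, adjusted p = 0.0139) passed, and all 5 plasmacytoid dendritic cell markers did (median -0.51), of which *Bst2* passed (-0.51, adjusted p = 0.0321). On day 7 of ruxolitinib all 5 plasma cell markers had a fitted value below 0 (median -0.37), again with none past the threshold, although the mean of *Tnfrsf17* was 2.03 normalised counts in the drug mice and 1.94 in the vehicle mice. That day 10 B lineage markers had a lower and 2 a higher value (median -0.55). Of the T cell markers 6 had a lower and 1 a higher value (median -0.19). All 8 neutrophil markers had a higher value (median 0.27), and no marker of these 3 lists passed. The summed level of the plasma cell markers weighs *Xbp1* most, whose median over the lanes was 125 normalised counts. The medians of *Slamf7*, *Irf4*, *Prdm1* and *Tnfrsf17* were 45.7, 30.2, 3.11 and 2.26. This sum was 250 to 259 normalised counts in the vehicle mice and 179 to 226 in the ruxolitinib mice on day 7, without overlap. It overlapped on day 1 (163 to 211 and 172 to 199) and day 3 (189 to 225 and 199.6 to 224). For venetoclax it was 173 to 187 in the vehicle mice and 219.6 to 250.2 in the drug mice on day 3, without overlap, and overlapped on day 1 (163 to 192 and 172 to 202) and day 7 (236 to 275 and 244 to 335). On that day 3, 6 of 8 neutrophil markers had a higher value (median 0.93) and all 7 T cell markers a lower one (median -0.996), none past the threshold. The summed T cell level was 75.6 to 104 in the vehicle mice and 35.7 to 46.3 in the venetoclax mice of day 3. The part of these cells in the plasma cell values was not tested.

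**Figure D4:**
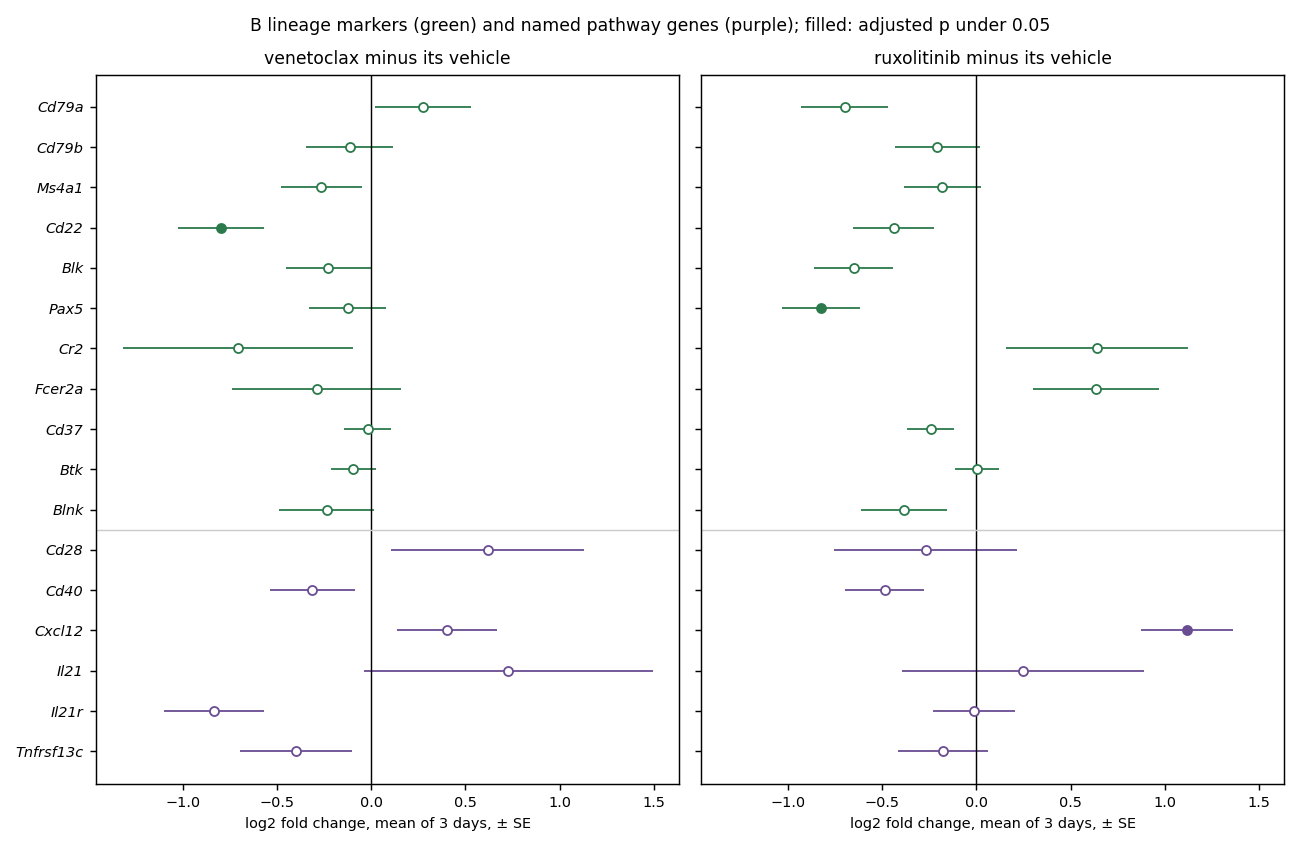
Log2 fold change averaged over the 3 days, drug minus its vehicle, with the SE as the bar, for 11 of the 12 B lineage markers (green) and the named genes of plasma cell biology (purple). Filled points have an adjusted p under the threshold: *Cd22* after venetoclax, and *Pax5* and *Cxcl12* after ruxolitinib.

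The genes whose pattern over the 33 mice was most like a member's were sought among 358 genes above background in at least 30 lanes, by Pearson's r of log2(normalised count + 1). These points share runs, depth and group means, and r is given as a description. For *Pou2af1* they were *Il7r*, the interleukin-7 receptor of early lymphoid cells (r = 0.77), *Prg2*, a granule protein of eosinophils (r = 0.76), and *Dpp4*, a surface peptidase (r = 0.74). After removing group means these were 0.58, 0.65 and 0.51, and *Cd244* (0.72) and *Psma2* (0.67) were then among the 3 closest genes. Within the runs of days 1, 3 and 7, *Il7r* had r = 0.57, 0.92 and 0.74, *Prg2* 0.82, 0.69 and 0.25, and *Dpp4* 0.77, 0.91 and 0.22. *Cd244* had 0.89, 0.37 and -0.098 and *Psma2* 0.80, 0.26 and 0.45. Apart from *Il7r*, each was lower within the run of day 7 than within that of day 1.

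For *Xbp1* the closest genes were *Lamp1* (r = 0.84), *Gpi1* (0.84) and *Itga4* (0.82), and *Itga4* was also among the closest without group means (0.89, with *H2-DMb2* at 0.86 and *Ltb* at 0.85). *Slamf7* was closest to *Syk* (0.69), *Ddx58* (0.69) and *Cyfip2* (0.64), and without group means to *Igll1* (0.67), *Mef2c* (0.56) and *Bst1* (0.55). *Cd38* had *Smad4* (0.75) and *Hif1a* (0.74) among its 3 closest genes, and was closest without group means to *Hif1a* (0.73), *Nfkbia* (0.68) and *Mrc1* (0.61). Within single runs several of these relations were weak, such as *Xbp1* with *Lamp1* on day 7 (r = -0.0042) and *Slamf7* with *Igll1*, which had 0.60, 0.84 and -0.65.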

How the data were processed

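The authors extracted total marrow RNA with an RNeasy kit and counted it on the nCounter, and the deposited files hold raw barcode counts per probe, 1 file per mouse, not normalised. A PanCancer Immune Profiling Panel is named in the methods and an immunology panel in the series text. Groups came from the sample labels, and the run of the day 3 mice is headed as day 2. No 2 lanes were identical.

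The scaling factor of a lane was the geometric mean of 11 housekeeping probes (of 20) that passed background (mean + 2 SD of 8 negative probes) everywhere. Genes that passed background in 2 or more lanes, 655 in all, were fitted with edgeR 4.0.16 (quasi-likelihood, R 4.3.3) as 13 group means with 20 residual degrees of freedom. P-values were adjusted by Benjamini-Hochberg, with a threshold of 0.05. The biological coefficient of variation was 20.2%. The labels do not say that mice were housed or dosed separately, so p-values measure the spread between these mice. Depth limits precision, and a count at or under the background of its lane (1.83 to 7.85 counts) has no measured level.

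Named genes were the 8 genes; of the 49-gene list, those past the threshold in any comparison of a drug with its vehicle and the 3 farthest from 0 in each average; and the 3 most alike genes of each member above background in at least 30 lanes. *Prdm1* and the other genes past the threshold were named after their values were seen, and plasma cell, B lineage, T cell, plasmacytoid dendritic cell, natural killer, stroma and neutrophil markers came from lists. A B lineage marker and 2 of the most alike genes are not reported here. The members and lists were chosen with earlier results of these data known. Promoter windows are those of RefSeq (GRCm38.p6), matched by symbol for 8 of 8 genes. The alternatives were other scalings (TMM, total count, all 20 housekeeping probes), DESeq2 1.42.0, limma 3.58.1 without and with background subtraction, no filter, a mean count of at least 20, the groups compared alone, a replicate block, pooled vehicles, untreated controls, no lanes under 30000 counts and each mouse left out.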

Additional observations from a re-analysis of the deposited data

How the results depend on the processing

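The averaged *Pou2af1* value after ruxolitinib was lower than vehicle under all 13 alternatives (-1.15 to -0.79) and all 15 omissions of a mouse (-1.09 to -0.78). It lost the threshold with limma (-0.86), limma after background subtraction (-1.13), untreated controls (-1.15, adjusted p = 0.0524) and the replicate block (-0.83, adjusted p = 0.140). The labels do not say whether equal replicate numbers pair the mice. Of 12 such pairs, 3 had a correlation over 0.1 between their deviations from the group means. With 2 mice in a vehicle group these deviations mirror each other, so the check cannot decide on pairing. Under the block the number of the 8 genes past the threshold after ruxolitinib went from 1 to 0, and the number of all genes from 8 to 3 (ruxolitinib) and from 19 to 7 (venetoclax). For the averaged ruxolitinib comparison, 0 of the 8 genes passed with limma, limma after background subtraction or untreated controls, 2 with pooled vehicles, and 0 to 1 over the omissions. All genes numbered 2 with limma, 3 after background subtraction, 15 with the groups compared alone, 20 with pooled vehicles and 2 to 11 over the omissions. For venetoclax they numbered 7 to 26 over the 13 alternatives, with 12 for DESeq2 and 8 for limma after background subtraction. Over the omissions they numbered 8 to 19. On single days, 2 of the 8 passed on day 1 of ruxolitinib with the groups compared alone (*Pou2af1* and *Cd38*), and with untreated controls 1 on day 7 of ruxolitinib (*Pou2af1*) and 1 on day 7 of venetoclax (*Slamf7*). Without venetoclax mouse 3 of day 7, 1 of the 8 passed in the averaged difference between drugs, *Pou2af1* (1.26, adjusted p = 0.0364), against 0 to 1 over the omissions.

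Of 42 fold changes recomputed, 30 kept their sign throughout and 12 did not, and the cause was not tested. The single-day values among the 42 were chosen partly for a low unadjusted p in these data. The share that kept its sign is thus not that of all values. When 1 mouse was left out, the log2 value of 26 of the 42 moved by over 1.5 times. *Cd38* averaged after ruxolitinib became -0.014 with total count scaling, -0.061 with background-subtracted limma, -0.0031 with the replicate block, -0.074 with untreated controls and -0.0036 without the shallow lanes, and -0.25 to 0.39 over the omissions. After venetoclax it became -0.031, -0.052 and -0.14 with total count, background-subtracted limma and untreated controls, and -0.088 to 0.48 over the omissions. On day 3 *Cd38* became -0.23 after venetoclax with untreated controls and, after ruxolitinib, 0.30 with pooled vehicles and -0.92 to 1.00 over the omissions. *Pou2af1* after venetoclax became -0.017 with limma, -0.22 after background subtraction and -0.34 with untreated controls. *Irf4* after venetoclax became -0.0011 with total count scaling and -0.061 to 0.47 over the omissions. *Tnfrsf17* became -0.35 after ruxolitinib with background-subtracted limma and -0.0041 to 0.40 over the omissions. With untreated controls it became -1.32 after ruxolitinib, -0.61 after venetoclax, and on day 1 -1.09 and -0.14. *Tnfrsf13b* became 0.012 averaged after ruxolitinib and *Slamf7* 0.14 on day 7 of ruxolitinib with the same controls, under which the median of all genes was -0.16 (ruxolitinib) and -0.20 (venetoclax).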

Other observations

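The levels of some of the genes in the 5 vehicle and untreated mice of each run are described here. *Pou2af1* had 43.2 to 60.8 normalised counts in the control mice of the day 1 run (median 49.4), 34.9 to 63.4 in those of day 3 (median 40.8) and 8.43 to 37.1 in those of day 7 (median 18.01), so the control mice of days 1 and 7 did not overlap. *Xbp1* was the other way round, with 38.4 to 117 on day 1, 88.4 to 123 on day 3 and 139 to 172 on day 7. *Cd38* had medians of 21.1, 22.6 and 40.3. *Slamf7* had medians of 39.9, 45.7 and 58.0, and its ranges of day 1 (35.05 to 60.4) and day 7 (44.9 to 68.8) overlapped. *Tnfrsf13b* had medians of 18.1, 18.4 and 19.5, with a range of 10.1 to 36.5 on day 7 against 16 to 21.98 on day 1 and 16.2 to 24.3 on day 3. In these values the day and the run cannot be told apart. No test was made between runs, and the share of all tested genes whose control mice did not overlap between runs was not counted.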
